A study of Mus musculus with 6 samples.

Results

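The genes described here are 10 genes that are widely used to mark dendritic cells, chosen by name: Flt3, Zbtb46, Clec9a, Itgax, Siglech, Bst2, Cd209a, Cd83, Fscn1 and Clec10a. All 10 were found among the 34245 genes of the table. Their RNA was measured by RNA-seq in 3 peripheral T-cell lymphomas (PTCL) from lymph nodes of Dnmt3b+/- mice of the FVB strain. These mice carry a germline knockout of 1 Dnmt3b allele and keep 1 wild-type allele, and the lymphomas arose spontaneously and were taken when the animals were terminally sick. The 3 tumors are independent and form 1 group, with no control library beside them, so that every result is a level or a difference between tumors and no test between groups was possible. Total RNA was taken from the tumor tissue, and no sorting of cells is stated. Bisulfite sequencing of 2 Dnmt3b+/- and 1 Dnmt3a-/- lymphomas was not analysed here.

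Values are FPKM, which divide the reads of a gene by the length of its exons and by the total reads of the library, so that levels can be compared between genes. Between tumors they also depend on the scaling, since the FPKM of all genes summed to 188740, 206902 and 223767 in tumors 1, 2 and 3. The libraries of tumors 1, 2 and 3 had depths of 30726570, 18969988 and 20770928 reads. Reads per gene were recovered from these values, and the intervals given below are exact Poisson 95% intervals on the recovered reads. They cover counting error only, since reads amplified by PCR without molecular identifiers are not independent molecules. As a check of the genotype label, Dnmt3b had 0.975, 1.55 and 1.25 FPKM in tumors 1, 2 and 3. These values sum over all exons and do not tell the alleles apart. Where 3 values are listed together without naming the tumors, they are those of tumors 1, 2 and 3 in this order.

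Dendritic cells take up antigen in tissues, carry it to the T-cell zone of lymph nodes and present it to T cells on MHC molecules. Conventional dendritic cells of type 1 present antigen from dead cells to CD8+ T cells, those of type 2 serve mainly CD4+ T cells, and plasmacytoid dendritic cells release type I interferon when they sense viral nucleic acid. The cells depend on the cytokine Flt3l, which signals through the receptor Flt3, and on maturation they raise costimulatory molecules and move along gradients of chemokines that Ccr7 recognizes. Several of the genes are not restricted to dendritic cells: Bst2 is induced by interferon in most cell types, Cd83 is carried by activated lymphocytes, and Fscn1 is made by endothelium, stroma and many tumors.

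Reads of all 10 dendritic cell genes were found in every tumor, at widely different levels. Bst2 stood apart with a mean of 217 FPKM, the 127th highest of all genes, and made up 91.9% of the FPKM summed over the 10 genes and the 3 tumors, a share of 65.7% in tumor 1, 96.7% in tumor 2 and 90.7% in tumor 3. Fscn1 and Cd83 followed with means of 6.88 and 4.12 FPKM. The other genes had means of 0.254 to 2.18 FPKM, in the order Clec10a, Itgax, Clec9a, Siglech, Flt3, Zbtb46 and Cd209a. The ranges over the tumors of Bst2 and Fscn1 did not overlap with that of the next gene, while those of neighbours from Cd83 to Flt3 did, as did those of Zbtb46 and Cd209a. The lowest Flt3 value, 0.639 FPKM, and the highest Zbtb46 value, 0.638 FPKM, were within counting error of each other. In bulk tissue, fewer cells of a type and less RNA per cell cannot be told apart.

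Of the 10 genes, 8 were above 0.2 FPKM in every tumor, against 36.7% of all genes. The exceptions were Siglech, below this level in tumor 2, and Cd209a, below it in tumor 1. The median of the mean FPKM over the 10 genes was 1.62, beside 0.0976 over all genes and 3.17 over the 15859 genes above 0.2 FPKM in at least 1 tumor. Without tumor 1 this median was 0.933 FPKM.

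**Figure D1:**
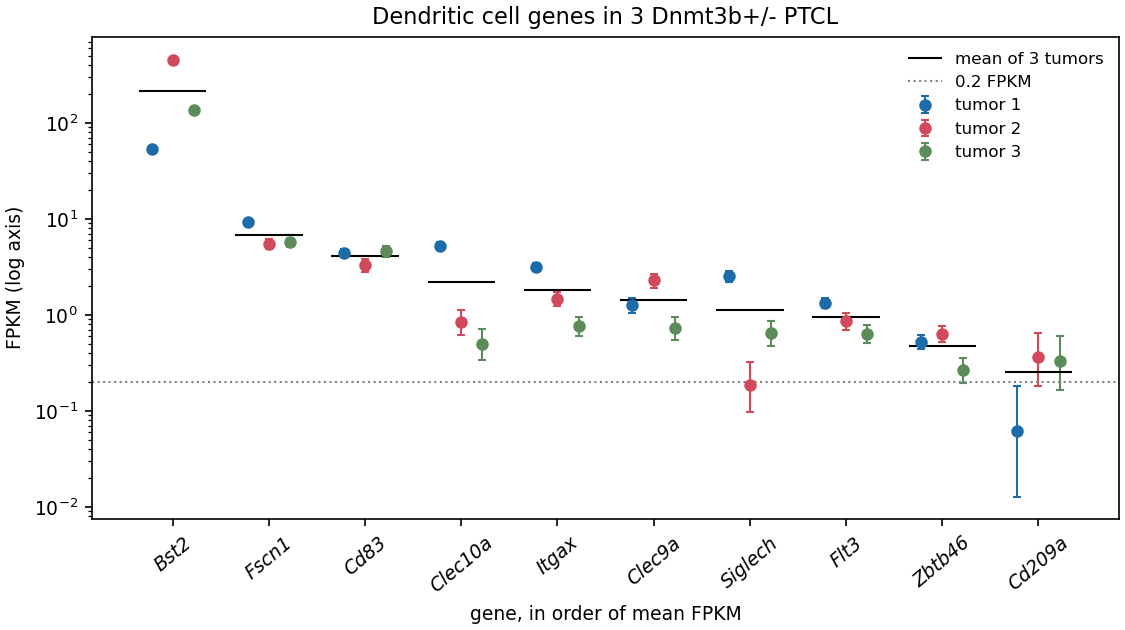
FPKM (log axis) of the 10 dendritic cell genes in each tumor, ordered by mean, with exact Poisson 95% intervals (counting error only) as bars, the mean of 3 tumors as a black line and 0.2 FPKM as a dotted line. Bst2 lies between 53.4 and 459 FPKM, while Siglech in tumor 2 and Cd209a in tumor 1 lie below 0.2 FPKM.

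The tumors differed from each other. Flt3, Itgax, Siglech, Fscn1 and Clec10a were highest in tumor 1, 5 of the 10 genes against 49.5% of the genes that passed 0.2 FPKM in at least 1 tumor. Zbtb46, Clec9a, Bst2 and Cd209a were highest in tumor 2, 4 of 10 against 35.8%. Cd83 was highest in tumor 3, 1 of 10 against 14.7%, though with FPKM rescaled to the same sum in every tumor its highest value was in tumor 1. Tumors 1, 2 and 3 were lowest for 2, 3 and 5 of the 10 genes, against 23.9%, 35.4% and 40.7%. These shares lie near the background and do not set the genes apart as a list. The same background applies to the lists of other genes below, whose counts were not tested against it. A tumor that stood at least 2 times above the next was found for Itgax, Siglech, Bst2 and Clec10a, 4 of 10 genes against 22.2%. The highest tumor was a median of 3.66 times the lowest over the 10 genes and 1.89 times over the genes above 0.2 FPKM in at least 1 tumor.

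On the log2(FPKM + 0.1) scale, the median difference over the 10 genes was 0.49 for tumor 1 minus tumor 2, 0.75 for tumor 1 minus tumor 3 and 0.51 for tumor 2 minus tumor 3. With 1 FPKM added in place of 0.1 the last 2 fell to 0.450 and 0.239, and with median-of-ratios factors the first fell to 0.326. Over all genes above 0.2 FPKM in at least 1 tumor the medians without these changes were 0.17, 0.29 and 0.10. Tumor 1 was above tumor 2 for 6 of the 10 genes and above tumor 3 for 7, and tumor 2 was above tumor 3 for 7. The genes thus did not move as 1 block, and they are described by role below.

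**Figure D2:**
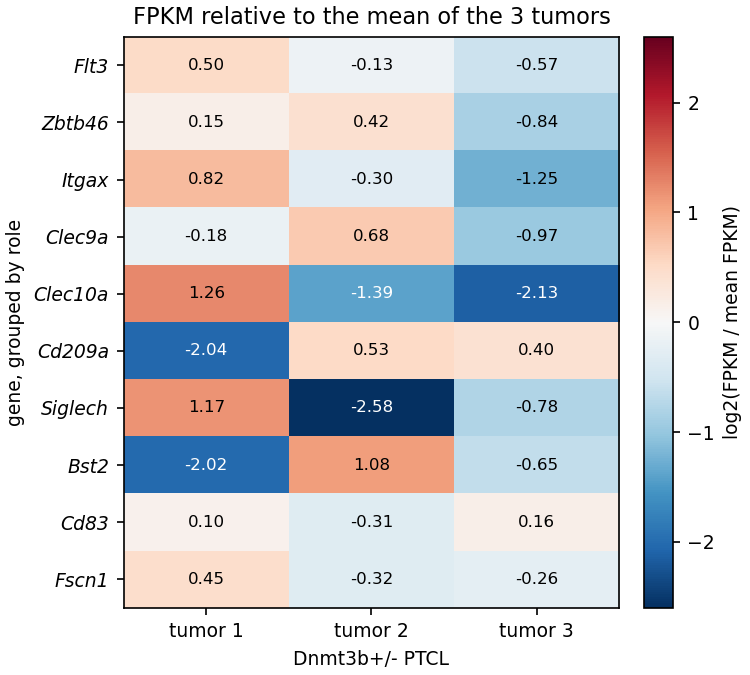
Log2 ratio of the FPKM in each tumor to the gene's mean over the 3 tumors, with genes grouped by role from conventional dendritic cell genes at the top to maturation genes at the bottom. Siglech and Bst2 have opposite signs in tumors 1 and 2, with -2.58 for Siglech and 1.08 for Bst2 in tumor 2.

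Genes of conventional dendritic cells were low but present in each tumor. Flt3 (ENSMUSG00000042817, mm10 chr5:147330741-147400489, minus strand), the receptor tyrosine kinase that sustains dendritic cell progenitors, had 1.34 FPKM in tumor 1 (254 reads), 0.862 FPKM in tumor 2 (101 reads) and 0.639 FPKM in tumor 3 (82 reads). Its mean was 0.947 ± 0.357 FPKM (SD, n = 3). Tumor 1 was above both others beyond counting error, while the intervals of tumors 2 and 3, 0.702 to 1.05 and 0.508 to 0.793 FPKM, overlapped.

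Zbtb46 (ENSMUSG00000027583, mm10 chr2:181387762-181459426, minus strand), a transcription factor that among immune cells marks the conventional dendritic cell lineage and that endothelial cells express as well, had 0.528 FPKM in tumor 1 (138 reads), 0.638 FPKM in tumor 2 (103 reads) and 0.266 FPKM in tumor 3 (47 reads). Its mean was 0.477 ± 0.191 FPKM (SD, n = 3). Tumors 1 and 2 could not be separated by counting error, and tumor 3 lay below both. The summed FPKM of 9 endothelial genes was likewise lowest in tumor 3, at 23.2, 21.5 and 5.95 FPKM in tumors 1, 2 and 3, with Pecam1 as the most abundant gene, and 2 of the 9 were above 0.2 FPKM in every tumor. The part of endothelium in the Zbtb46 level was not tested.

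Itgax (ENSMUSG00000030789, mm10 chr7:128129547-128150657, plus strand) encodes the integrin chain CD11c, which dendritic cells and many macrophages carry. It had 3.18 FPKM in tumor 1 (470 reads), 1.47 FPKM in tumor 2 (134 reads) and 0.762 FPKM in tumor 3 (76 reads), with a mean of 1.81 ± 1.25 FPKM (SD, n = 3). The intervals of the 3 tumors did not overlap. Without tumor 1 the mean was 1.12 FPKM. Itgb2, the chain that pairs with CD11c and with the other leukocyte integrins, was far higher and nearly level, at 118, 145 and 121 FPKM.

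Clec9a (ENSMUSG00000046080, mm10 chr6:129408862-129424763, plus strand), the receptor by which type 1 conventional dendritic cells bind the exposed actin of dead cells, was highest in tumor 2. It had 1.27 FPKM in tumor 1 (128 reads), 2.29 FPKM in tumor 2 (143 reads) and 0.731 FPKM in tumor 3 (50 reads), with a mean of 1.43 ± 0.792 FPKM (SD, n = 3). The intervals of the 3 tumors did not overlap, and tumor 2 was 3.13 times tumor 3. Exons of Clec1b on the same strand overlap 184 bases of its exons, or 5.59%. Clec1b itself, named here for this overlap, had at most 0.159 FPKM in any tumor. The ratio of Clec9a to Itgax was 0.397 in tumor 1, against 1.56 and 0.960 in tumors 2 and 3, so the order of these genes differed between tumors.

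Other genes of type 1 conventional dendritic cells were detected with Clec9a. All 8 genes of the list were above 0.2 FPKM in every tumor. Their summed FPKM in tumors 1, 2 and 3 came to 44.5, 39.4 and 18.7, with 5 genes at their highest in tumor 1, the other 3 in tumor 2. The most abundant were Naaa, a lysosomal amidase, Irf8, a transcription factor that the subset requires and that B cells also use, and Itgae, an integrin chain that CD8+ T cells carry as well. Naaa had 14.3, 14.5 and 5.23 FPKM in tumors 1, 2 and 3. Irf8 was highest in tumor 2, at 7.58, 12.3 and 5.38 FPKM, whereas Itgae was highest in tumor 1, at 12.3, 4.28 and 2.26 FPKM. Xcr1, the chemokine receptor that is most restricted to the subset and was chosen after its values were seen, had 2.29 FPKM in tumor 1 (314 reads), 1.47 FPKM in tumor 2 (124 reads) and 0.973 FPKM in tumor 3 (90 reads). Tumor 3, the most frequent lowest tumor over all genes above 0.2 FPKM in at least 1 tumor (40.7%), was lowest for Clec9a and for all 8 genes of the list, while the highest tumor varied.

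The C-type lectins of type 2 conventional dendritic cells and monocyte-derived cells went different ways. Clec10a (ENSMUSG00000000318, mm10 chr11:70156197-70170834, plus strand), a lectin for galactose and N-acetylgalactosamine that macrophages carry too, had 5.22 FPKM in tumor 1 (465 reads), 0.836 FPKM in tumor 2 (46 reads) and 0.498 FPKM in tumor 3 (30 reads). Its mean was 2.18 ± 2.63 FPKM (SD, n = 3), and 0.667 FPKM without tumor 1. Tumor 1 was 6.24 times tumor 2, while the intervals of tumors 2 and 3 overlapped. Among the 10 genes it ranked 3rd in tumor 1 but 7th and 8th in tumors 2 and 3. Its close paralog Mgl2 lies beside it on chromosome 11 and varied less, at 1.21, 0.931 and 0.460 FPKM, so that Clec10a was 4.31 times Mgl2 in tumor 1 and 0.898 and 1.08 times Mgl2 in tumors 2 and 3. Reads that match both genes equally well would be lost to the mapping quality filter, so these levels are uncertain.

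Cd209a (ENSMUSG00000031494, mm10 chr8:3743397-3748984, minus strand), the mouse homolog of DC-SIGN found on type 2 and monocyte-derived dendritic cells, had the lowest mean of the 10 genes, ranking 10th in tumor 1 and 9th in tumors 2 and 3. It had 0.0617 FPKM in tumor 1 (3 reads), 0.366 FPKM in tumor 2 (11 reads) and 0.335 FPKM in tumor 3 (11 reads). The 3 reads in tumor 1 equal the limit that a count of 0 allows. Tumor 2 was 5.94 times tumor 1, but the interval of tumor 1, 0.0127 to 0.180 FPKM, reached almost to the lower bound of tumor 2 at 0.183 FPKM, and it overlapped with that of tumor 3, which began at 0.167 FPKM. Cd209b, its paralog of marginal zone and lymph node macrophages, showed the reverse, with 32.4, 0.374 and 1.71 FPKM in tumors 1, 2 and 3. Since the Cd209 genes are similar in sequence, their levels are uncertain in the same way as that of Clec10a. Of the 13 lectin and Siglec paralogs listed, 6 were above 0.2 FPKM in every tumor and 8 were highest in tumor 1. Their summed FPKM was 51.3, 41.3 and 19.4 in tumors 1, 2 and 3, of which Cd22, a Siglec of B cells, gave 5.84, 36.5 and 13.9 FPKM. Mgl2 belongs to both this list and the type 2 list. Siglec1, the sialoadhesin of lymph node macrophages, had 5.56, 1.63 and 0.270 FPKM.

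The type 2 list as a whole was highest in tumor 1. Its 8 genes summed to 24.5, 7.05 and 5.87 FPKM in tumors 1, 2 and 3, 5 of the 8 were above 0.2 FPKM in every tumor, and 6 were highest in tumor 1. Sirpa, a receptor for CD47 on type 2 dendritic cells and macrophages, led the list with 15.8, 3.93 and 1.25 FPKM. Irf4, a transcription factor of type 2 dendritic cells that activated T cells and plasma cells also express, had 3.57, 0.312 and 3.25 FPKM.

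Most macrophage genes were highest in the same tumor. Of 13 monocyte and macrophage genes, 11 were above 0.2 FPKM in every tumor. Tumor 1 was highest for 10 of the 13, against 49.5% of the genes that passed 0.2 FPKM in at least 1 tumor. Their summed FPKM in tumors 1, 2 and 3 came to 578, 952 and 405. The most abundant gene, Ly6c2, is carried by CD8+ T cells as well as monocytes and had 9.64, 750 and 335 FPKM, and without it the sums were 569, 202 and 70.1 FPKM. Lyz2, the lysozyme of macrophages and neutrophils, had 215, 33.1 and 20.3 FPKM, and Ccr2, a chemokine receptor of monocytes and effector T cells, had 35.0, 53.2 and 34.0 FPKM. Itgax, Clec10a and Sirpa are expressed by macrophages, and the part of macrophages in their levels was not tested.

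Siglech and Bst2, both used to mark plasmacytoid dendritic cells in the mouse, had opposite extremes. Siglech (ENSMUSG00000051504, mm10 chr7:55768178-55778925, plus strand), a Siglec that signals through the adaptor Tyrobp, had 2.52 FPKM in tumor 1 (262 reads), 0.187 FPKM in tumor 2 (12 reads) and 0.655 FPKM in tumor 3 (46 reads). Its mean was 1.12 ± 1.23 FPKM (SD, n = 3), and 0.421 FPKM without tumor 1. The intervals of the 3 tumors, 2.22 to 2.84, 0.0966 to 0.327 and 0.479 to 0.873 FPKM, did not overlap. Among the 10 genes Siglech ranked 6th in tumors 1 and 3 and 10th in tumor 2.

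Bst2 (ENSMUSG00000046718, mm10 chr8:71534255-71537456, minus strand) encodes tetherin, a membrane protein that holds budding virus particles on the cell. It is constitutive on plasmacytoid dendritic cells and is induced by interferon elsewhere. It had 53.4 FPKM in tumor 1 (1482 reads), 459 FPKM in tumor 2 (7857 reads) and 138 FPKM in tumor 3 (2594 reads), with a mean of 217 ± 214 FPKM (SD, n = 3) and of 95.9 FPKM without tumor 2. Tumor 2 was 3.32 times tumor 3 and 8.59 times tumor 1, and the intervals did not overlap. For each 100 FPKM of Bst2 there were 4.72 FPKM of Siglech in tumor 1, against 0.0408 and 0.473 FPKM in tumors 2 and 3. The tumor with the highest Bst2 was therefore the one with the lowest Siglech.

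Interferon-stimulated genes had their highest level in the same tumor as Bst2. All 14 genes of the list were highest in tumor 2, against 35.8% of the genes that passed 0.2 FPKM in at least 1 tumor. Of the 14, 12 were lowest in tumor 1, as Bst2 was, against 23.9%. These 12 had the order of Bst2, with tumor 3 next. The share of all genes with this full order was not computed. Their summed FPKM in tumors 1, 2 and 3 came to 191, 880 and 340, and 13 of the 14 were above 0.2 FPKM in every tumor. Isg15, a ubiquitin-like modifier and the most abundant, had 26.0, 270 and 81.7 FPKM. Usp18, the protease that removes it, had 7.05, 81.5 and 30.4 FPKM. The part of interferon in the Bst2 level was not tested.

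The plasmacytoid list had no common highest tumor, but most of its genes were lowest in tumor 2, as Siglech was. Tumors 1, 2 and 3 were highest for 4, 3 and 5 of its 12 genes, and tumor 2 was lowest for 8, against 35.4% of the genes that passed 0.2 FPKM in at least 1 tumor. Of the 12 genes, 8 were above 0.2 FPKM in every tumor. The summed FPKM of 52.9, 158 and 103 in tumors 1, 2 and 3 was led by Irf7, which is itself induced by interferon and had 16.8, 132 and 36.7 FPKM. Without Irf7 the sums were 36.1, 26.4 and 65.9 FPKM. Ly6d, shared with B cells, had 9.10, 3.19 and 29.4 FPKM, and Pacsin1, a membrane-bending protein, had 3.20, 9.21 and 8.95 FPKM, where tumors 2 and 3 could not be separated by counting error. The B-cell list had the same extremes as Ly6d, with sums of 63.4, 15.2 and 114 FPKM. Of its 9 genes, 8 were above 0.2 FPKM in every tumor and 8 were highest in tumor 3, led by Cd79a with 23.1, 7.31 and 49.0 FPKM and Cd79b with 20.1, 3.72 and 35.5 FPKM. Cd22, in contrast, was highest in tumor 2. The part of B cells in the Ly6d level was not tested.

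**Figure D3:**
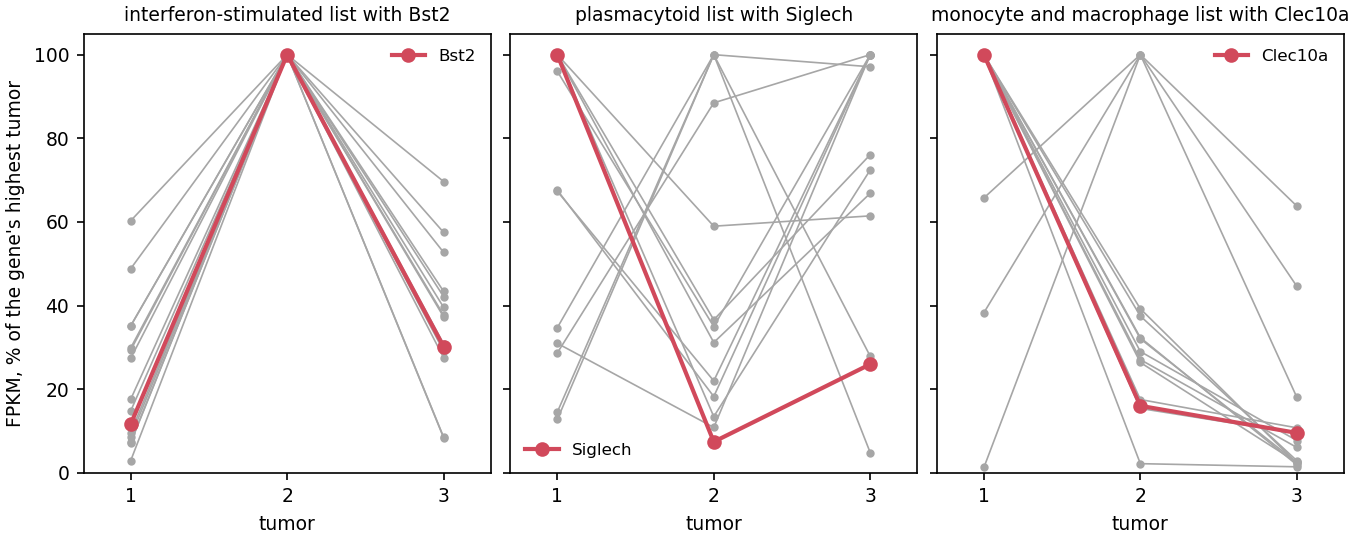
FPKM in each tumor as a percentage of the gene's highest tumor, for the interferon-stimulated, plasmacytoid and monocyte and macrophage lists (grey, 1 line per gene) with Bst2, Siglech and Clec10a in red. Lines join the values of 1 gene and mark no order of the tumors. All 14 interferon-stimulated genes peak in tumor 2, as do Bst2 and 35.8% of the genes above 0.2 FPKM in at least 1 tumor. Of 13 monocyte and macrophage genes, 10 peak in tumor 1, as do Clec10a and 49.5% of those genes.

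The promoters of the dendritic cell genes were searched for the letters of known binding sites, as a description and not as a test of the differences between tumors. Promoters of 300 bases, 250 before to 50 after the transcription start, were taken from RefSeq (GRCm38.p6) for 8 of the 10 genes. Cd83 and Clec10a were not among them. On both strands, GAAANNGAA, the core of interferon-stimulated response elements, was found in Bst2 and Clec9a and in 8.56% of 32851 promoters. The core of PU.1 sites, GAGGAAGT, was found in 3.20% of all promoters and in none of the 8 genes, and the kappaB consensus was found in 8.46% of all promoters and in Bst2. The Bst2 promoter holds 2 overlapping GAAANNGAA matches on the strand of the gene, from 130 to 116 bases before the start, and the kappaB match lies from 142 to 133 bases before it, without overlap. Isg15, the most abundant gene of the interferon-stimulated list, is shown for comparison and holds 3 overlapping matches from 78 to 58 bases before its start. Irf7, which had the same order of tumors, holds no match in this window. In Clec9a, a single match on the opposite strand spans the start. A match is a description of the letters and does not show that a factor binds. The sequences run 5′ to 3′ on the strand of the gene, with matches to GAAANNGAA on either strand in capitals, at chr8:71537423-71537722 (minus strand) for Bst2, chr4:156200769-156201068 (minus strand) for Isg15 and chr6:129408612-129408911 (plus strand) for Clec9a.
Bst2: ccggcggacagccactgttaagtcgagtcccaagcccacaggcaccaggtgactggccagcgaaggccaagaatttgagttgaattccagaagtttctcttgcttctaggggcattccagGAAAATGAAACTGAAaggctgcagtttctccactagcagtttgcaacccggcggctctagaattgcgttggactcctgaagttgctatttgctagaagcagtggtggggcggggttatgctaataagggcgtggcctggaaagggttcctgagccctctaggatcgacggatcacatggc
Isg15: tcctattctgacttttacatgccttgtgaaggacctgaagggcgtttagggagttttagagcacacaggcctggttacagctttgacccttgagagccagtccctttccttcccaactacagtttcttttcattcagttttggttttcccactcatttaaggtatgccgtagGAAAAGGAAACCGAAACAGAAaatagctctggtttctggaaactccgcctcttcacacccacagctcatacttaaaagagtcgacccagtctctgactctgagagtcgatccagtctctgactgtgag
Clec9a: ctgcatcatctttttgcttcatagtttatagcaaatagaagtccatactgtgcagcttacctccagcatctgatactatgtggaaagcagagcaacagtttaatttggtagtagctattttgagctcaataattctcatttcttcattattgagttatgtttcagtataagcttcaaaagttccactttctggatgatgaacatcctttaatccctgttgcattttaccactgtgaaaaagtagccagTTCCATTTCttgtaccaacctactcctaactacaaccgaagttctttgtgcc

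The maturation genes varied least among the tumors relative to their means. Cd83 (ENSMUSG00000015396, mm10 chr13:43784775-43803132, plus strand), a surface protein of mature dendritic cells that stabilizes MHC class II and CD86, had 4.43 FPKM in tumor 1 (350 reads), 3.32 FPKM in tumor 2 (162 reads) and 4.60 FPKM in tumor 3 (246 reads). Its mean was 4.12 ± 0.696 FPKM (SD, n = 3), and the SD was 16.9% of the mean, the smallest share among the 10 genes. Tumors 1 and 3 could not be separated by counting error, and tumor 2 lay below both. Fscn1 (ENSMUSG00000029581, mm10 chr5:142960343-142973185, plus strand), which bundles actin in the processes of mature dendritic cells, had 9.39 FPKM in tumor 1 (869 reads), 5.51 FPKM in tumor 2 (315 reads) and 5.74 FPKM in tumor 3 (359 reads). Its mean was 6.88 ± 2.18 FPKM (SD, n = 3). Tumor 1 was 1.64 times tumor 3, beyond counting error, while tumors 2 and 3 overlapped.

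Other genes of mature or migratory dendritic cells were mostly highest in tumor 1, as were many genes in general. Of 12 genes, 10 were highest in tumor 1, against 49.5% of the genes that passed 0.2 FPKM in at least 1 tumor, and 2 in tumor 2, and 10 were above 0.2 FPKM in every tumor. They summed to 115, 60.3 and 74.0 FPKM in tumors 1, 2 and 3, and to 43.6, 27.1 and 20.2 FPKM without Ccr7. Ccr7, the homing receptor of mature dendritic cells and of naive T cells, had 71.2, 33.2 and 53.8 FPKM. Relb, an NF-kappaB subunit, had 6.43, 7.11 and 4.14 FPKM, and Socs2, an inhibitor of cytokine signaling, had 10.2, 5.80 and 0.642 FPKM. Ccl22, a chemokine of mature dendritic cells that was chosen after its values were seen, was nearly as high in tumor 3 as in tumor 1 and lower in tumor 2, at 6.54, 1.90 and 5.78 FPKM. MHC class II genes summed to 547, 260 and 316 FPKM, with all 10 above 0.2 FPKM in every tumor and 8 highest in tumor 1. Cd74, the invariant chain and the most abundant, had 345, 167 and 207 FPKM, H2-Ab1 had 83.5, 34.4 and 30.7 FPKM, and H2-Aa had 56.1, 21.6 and 37.5 FPKM. B cells and macrophages carry MHC class II as well, and their part in these sums was not tested. Early response genes of cell activation, which lymphocyte activation and tissue handling both raise, had similar sums of 106, 106 and 91.0 FPKM over 13 genes, 12 of them above 0.2 FPKM in every tumor. The most abundant genes carried these sums, while for 8 of the 13 the highest tumor was at least 2 times the lowest. The median of this ratio was 1.89 over the genes above 0.2 FPKM in at least 1 tumor. The share of those genes that reached 2 was not computed, so the 8 genes do not set the list apart. Fos, chosen after its values were seen, had 0.747, 0.762 and 5.02 FPKM. Junb had 35.4, 37.1 and 31.0 FPKM, Nfkbia had 34.2, 35.2 and 26.2 FPKM and Ier2 had 15.2, 12.6 and 14.8 FPKM.

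The growth factors of dendritic cells and their receptors were unequal between tumors. Flt3l, the ligand of Flt3, which T cells produce, had 22.4, 13.4 and 13.1 FPKM in tumors 1, 2 and 3. It exceeded its receptor by 16.7, 15.6 and 20.4 times, so that ligand and receptor kept a similar ratio while both were highest in tumor 1. Csf1r, the macrophage colony-stimulating factor receptor, had 20.7, 3.72 and 2.36 FPKM, and its ligand Csf1 had 2.14, 0.868 and 0.346 FPKM. Csf2, which encodes GM-CSF, was highest in tumor 2, at 1.02, 5.34 and 1.99 FPKM, as was Csf2ra, the alpha chain of its receptor, at 6.23, 11.5 and 2.73 FPKM. The shared beta chain Csf2rb had 8.83, 3.78 and 1.61 FPKM. Il3ra, the interleukin-3 receptor alpha chain that marks plasmacytoid dendritic cells in humans more than in mice, was 6.50 times higher in tumor 2 than in the next tumor, at 2.02, 13.1 and 1.57 FPKM. Its level was thus high in the tumor where Siglech was lowest. Kit, the stem cell factor receptor, had 0.785, 0.390 and 0.243 FPKM, and its ligand Kitl had 0.308, 0.0892 and 0.00814 FPKM, the last from 1 read. Of the 9 genes, 8 were above 0.2 FPKM in every tumor, 6 were highest in tumor 1 and 3 in tumor 2. Their sums were 64.4, 52.2 and 23.9 FPKM, in which Flt3l is counted as it is among the pairing chains. Tyrobp, the adaptor of Siglech and of many receptors of macrophages and natural killer cells, had 42.0, 27.0 and 15.1 FPKM and was above 0.2 FPKM in every tumor, as were Itgb2 and Flt3l. The 3 pairing chains summed to 182, 186 and 150 FPKM, and the order of tumors 1 and 2 in this sum reversed when FPKM were rescaled to the same sum in every tumor.

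Transcription factors shared by dendritic cell subsets summed to 113, 71.7 and 69.3 FPKM, with 6 of 8 above 0.2 FPKM in every tumor and 5 highest in tumor 1. Ikzf1, active in lymphocytes in general, gave most of this sum, at 63.5, 52.1 and 52.4 FPKM. Id2, which dendritic cells share with effector T cells and natural killer cells, had 38.2, 10.9 and 12.1 FPKM. Spi1 encodes PU.1, which mature T cells largely lack, and it had 5.87 FPKM in tumor 1 (486 reads), 2.17 FPKM in tumor 2 (111 reads) and 1.43 FPKM in tumor 3 (80 reads). Tumor 1 was 2.70 times the next tumor for Spi1. Tumor 1 was the highest for 49.5% of the genes that passed 0.2 FPKM in at least 1 tumor. The part of macrophages or dendritic cells in the Spi1 level was not tested.

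T-cell genes set the scale against which the dendritic cell genes stand. All 14 were above 0.2 FPKM in every tumor, and their sums were 1934, 1620 and 1948 FPKM, where the highest tumor changed from 3 to 1 with FPKM rescaled to the same sum. Cd8b1 had 435, 166 and 443 FPKM, Cd8a had 259, 122 and 218 FPKM and Lck had 160, 208 and 207 FPKM, so that the labelled T-cell identity was seen in each library. Without Bst2, the dendritic cell genes summed to 27.9, 15.5 and 14.2 FPKM in tumors 1, 2 and 3.

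The lists of other cells also differed between tumors beside the dendritic cell genes. Plasma cell genes summed to 829, 189 and 209 FPKM, of which Jchain gave 814, 185 and 179 FPKM. Without Jchain the sums were 14.8, 4.23 and 30.3 FPKM, and 4 of the 5 genes were highest in tumor 3. The next were Mzb1, with 11.0, 2.62 and 25.8 FPKM, and Derl3, with 2.27, 0.952 and 2.32 FPKM, and 4 of the 5 genes were above 0.2 FPKM in every tumor. Neutrophil genes summed to 43.5, 1.96 and 19.0 FPKM, with 3 of 11 above 0.2 FPKM in every tumor. S100a9 had 22.6, 1.01 and 10.4 FPKM. S100a8 had 13.2, 0.228 and 4.30 FPKM, where the value of tumor 2 came from 3 reads. Csf3r had 3.15, 0.321 and 1.47 FPKM. Elane, the granule protease of immature neutrophils, had no read in any tumor, which allows up to 0.161 FPKM in tumor 2, the shallowest library. Tumor 2 was thus lowest for neutrophil genes as for Siglech. Natural killer receptors had their highest sum in tumor 2, at 0.981, 54.6 and 3.84 FPKM, with 4 of 5 highest there and 1 of 5 above 0.2 FPKM in every tumor. Klre1 had 0.242, 32.2 and 0.0551 FPKM, the last from 4 reads. Klra4 had 0.0261, 15.9 and 0.232 FPKM, the first from 1 read and the last from 6 reads. Klrb1c had 0.308, 5.77 and 3.38 FPKM. CD8+ T cells can carry such receptors too. Ncr1, a receptor more restricted to natural killer cells and chosen after its values were seen, was low in each tumor, at 0.380, 0.205 and 0.125 FPKM, with no tumor separated from another by counting error.

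Genes of nonimmune tissue had unequal levels between tumors. Stromal genes summed to 53.2, 70.6 and 2.72 FPKM, with 2 of 12 above 0.2 FPKM in every tumor. Ccl21a, the chemokine that draws mature dendritic cells to the T-cell zone through Ccr7, had 19.3, 14.1 and 2.21 FPKM in tumors 1, 2 and 3. Ccl19, the other ligand of Ccr7, had 12.4 and 3.95 FPKM in tumors 1 and 2 and no read in tumor 3. Col1a1 had 1.63, 15.5 and 0.315 FPKM. Of the endothelial genes, Pecam1 had 12.2, 10.9 and 4.86 FPKM and Plvap had 5.22, 7.06 and 0.751 FPKM. Lyve1, of lymphatic endothelium and some macrophages, had 4.13 and 1.28 FPKM in tumors 1 and 2 and no read in tumor 3. Pancreatic acinar genes summed to 91.8, 459 and 0.677 FPKM, and none of 9 was above 0.2 FPKM in every tumor. Ctrb1, at 33.9 and 198 FPKM in tumors 1 and 2, was without a read in tumor 3. Prss2 had 14.9, 52.1 and 0.177 FPKM, the last from 3 reads. Cela2a had 6.72, 50.7 and 0.196 FPKM, the last from 7 reads. Erythroid genes summed to 202, 38.4 and 4.76 FPKM, with 4 of 6 above 0.2 FPKM in every tumor. Hba-a1 had 92.3, 19.6 and 1.90 FPKM. Hba-a2 had 40.7, 8.22 and 0.0722 FPKM, the last from 1 read. Hbb-bs had 35.3, 6.93 and 1.25 FPKM. The levels of the near-identical globin genes, of Ly6c2 and of the Klra receptors are uncertain for the same reason as that of Clec10a. Tumor 3 had the lowest sums of stromal, endothelial, acinar and erythroid genes. The amount of nonimmune tissue was not measured, and its part in the dendritic cell genes was not tested.

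**Figure D4:**
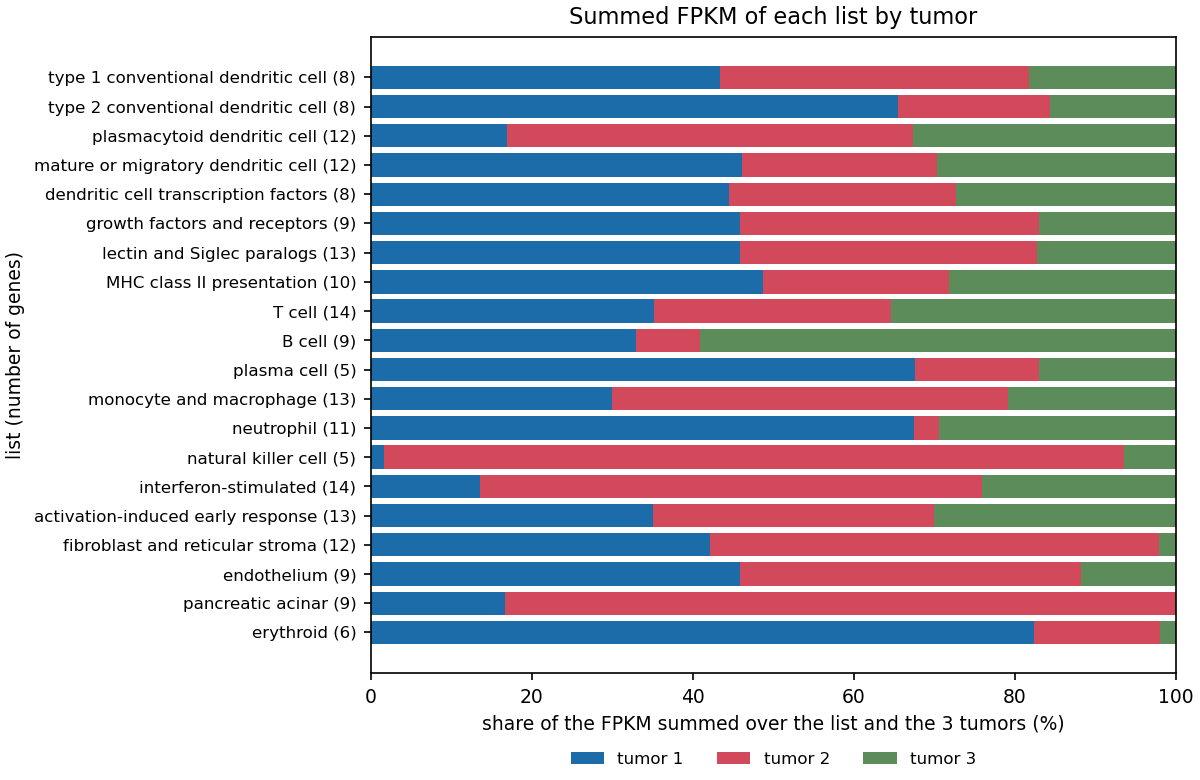
Share of the FPKM summed over a list and the 3 tumors (%, 0 to 100) that each tumor holds, with the number of genes of the list in brackets. Tumor 1 holds 65.4% for type 2 conventional dendritic cells and 82.4% for erythroid genes, tumor 2 holds 62.4% for interferon-stimulated genes and 83.2% for acinar genes, and tumor 3 holds 59.2% for B cells.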

How the data were processed

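RNA-seq libraries (paired-end, 150 bp) of 3 Dnmt3b+/- PTCL were used. The authors trimmed the reads, aligned them to mm10 with STAR, kept a mapping quality of at least 50 and quantified genes with SeqMonk; the annotation version is not given in the sources used here. The values the authors deposited are FPKM on a linear scale, 1 column per tumor. Genes with no read were given 0.9 read in these values, which yielded the depth of each library. Reads were recovered with merged exon lengths of GENCODE M21, matched by Ensembl identifier for 99.6% of the genes, and a count of 0 was taken to allow 3 reads. Because FPKM are no counts, count models were not used. The strand setting is not given in the sources used here.

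The dendritic cell genes and the lists were chosen with earlier results of these data known. Named are the 10 genes, every growth factor, receptor and pairing chain listed, the 3 genes of each other list with the highest mean FPKM, listed genes without a read in any tumor, and Dnmt3b; others are marked as chosen after their values were seen. Of these, 2 list genes are not reported here. For repeated symbols the gene with the highest mean was used. Protein identity between paralogs was not computed. Depth recovery and calls were tested on simulated data. Values were computed in Python 3.11 with SciPy 1.17.1, NumPy 2.4.6 and pandas 2.3.3, and plotted with matplotlib 3.10.9.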

Additional observations from a re-analysis of the deposited data

How the results depend on the processing

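With FPKM rescaled to sum to 1000000 in each tumor, the median FPKM of the dendritic cell genes was 8.07, since the rescaling multiplies every value, and 0 of them were highest in tumor 3. At an FPKM threshold of 1, 3 genes were above it in every tumor. A ratio to the next tumor of 1.5, or exact Poisson intervals of the highest and next tumor that do not overlap, gave 7 genes with a leading tumor. The share over all genes was not computed at these settings, so these counts cannot be set against a background. With each tumor left out in turn, 8 to 9 genes were above 0.2 FPKM in every remaining tumor, 4 to 6 had a leading tumor, 6 to 7 were highest in tumor 1, 4 to 7 in tumor 2 and 3 in tumor 3, where fewer tumors to compare raise the counts by construction, and the median FPKM was 0.933 to 2.05. The median log2 differences between tumors stayed above 0 in every alternative run, including a pseudocount of 0.01 and the genes other than Bst2 or other than Cd209a and Clec10a, the last 2 chosen after seeing the data, but their size changed: a pseudocount of 1 gave 0.329, 0.450 and 0.239 for tumors 1 minus 2, 1 minus 3 and 2 minus 3, median-of-ratios factors 0.326, 0.509 and 0.424 and the rescaling 0.649, 1.09 and 0.681. Without tumor 1 the mean FPKM of Clec10a fell from 2.18 to 0.667 and that of Siglech from 1.12 to 0.421. Leaving out a tumor gives no value for a difference or a highest tumor that involves it, and no gene symbol among the 10 is repeated, so that summing repeated symbols was not run. No paired analysis was possible because expression values were analysed for 1 group. The depth limits Cd209a and Siglech most, with 3 and 12 reads in their lowest tumors.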
